A study of Mus musculus with 5 samples.

Results

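The genes described here encode the protein subunits of the ribosomes of the cytosol and of the mitochondrion, measured in sciatic nerves of newborn mice with and without the transcription factor Ebf2. They were chosen by symbol: names that start with Rpl or Rps and a digit for the cytosolic ribosome, and with Mrpl or Mrps and a digit for the mitochondrial one, without pseudogene symbols and without probe sets that carry several symbols. The rule found 66 of the 9407 genes with a single symbol, or 66 of all 10361 probe sets in the table. Of these, 34 were counted by symbol as mitochondrial ribosomal proteins and 29 as cytosolic ones, out of 78 and 83 protein-coding RefSeq genes whose symbols fit the rule. The others are not analysed here. Another 3 symbols fit the pattern by name but encode no ribosomal subunit: the kinases Rps6ka5 and Rps6ka6, and Rps19bp1, a protein that binds Rps19. They are described apart. Mrps36 and Rpl7l1, whose roles are given below, were kept in their classes by symbol.

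The study compared wild-type (WT, Ebf2+/+) with Ebf2-/- (KO) nerves at postnatal day 2, all on the C57Bl6N background and all from pups of heterozygous parents. Each array measured 1 pool of 12 nerves, with 3 WT pools (numbers 1, 9 and 11) and 2 KO pools (numbers 2 and 4). The knockout is present in every cell of the pup, and the labels do not say which part of Ebf2 is missing or how many animals or litters stand behind a pool. Values are log2 expression levels from Affymetrix whole-transcript arrays, so a difference of 1 is a doubling, and a log2 fold change is always the KO mean minus the WT mean with its standard error (SE). Each p-value is two-sided, from limma, and rests on these 5 pools alone. Unless no moderation is named, limma moves the spread of each probe set towards that of all probe sets, for the SE as well. Some of the spread may be technical.

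Ribosomal proteins and ribosomal RNA are assembled into a large and a small subunit, which translate messenger RNA. The cytosolic ribosome makes nearly all proteins of the cell. Its subunit genes are expressed at high levels, and their transcripts typically begin with a run of pyrimidines, the terminal oligopyrimidine tract, through which the growth kinase mTORC1 controls their translation. The mitochondrial ribosome is built from a separate set of nuclear genes and translates the few proteins encoded in mitochondrial DNA, all of them parts of the respiratory chain and the ATP synthase. Around birth Schwann cells multiply and begin to make myelin, which places a heavy demand on protein and lipid synthesis.

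Promoter sequences were searched for the pyrimidine start and for motifs of known factors. RefSeq (GRCm38.p6) held a window from 250 bases before to 50 bases after the start for 26 of the 29 cytosolic and 30 of the 34 mitochondrial genes. A start with C followed by 4 pyrimidines was found in 5 of the 26 cytosolic genes (19.2%) and in 0 of the 30 mitochondrial genes, against 3.01% of all 27025 genes with a window. The other 21 cytosolic windows did not begin this way at the annotated start. The 5 starts are shown because this feature is known from the class. Each line gives the 35 bases before and the first 15 bases from the annotated start, with the unbroken run of pyrimidines from the start in capitals.
Rps6 (chr4:86857353-86857402, minus strand): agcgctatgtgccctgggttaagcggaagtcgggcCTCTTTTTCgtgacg
Rpl28 (chr7:4792930-4792979, plus strand): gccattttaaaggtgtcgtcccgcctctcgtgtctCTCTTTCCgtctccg
Rpl14 (chr9:120571482-120571531, plus strand): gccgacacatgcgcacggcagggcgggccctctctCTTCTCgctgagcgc
Rpl38 (chr11:114668545-114668594, plus strand): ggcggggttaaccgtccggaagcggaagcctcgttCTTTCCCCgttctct
Rps18 (chr17:33955651-33955700, minus strand): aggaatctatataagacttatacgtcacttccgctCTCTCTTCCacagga

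For contrast, the same window is given for the 3 mitochondrial genes with the lowest KO levels relative to WT, with the first 5 bases from the start in capitals. None of these 3 begins with C and 4 pyrimidines.
Mrpl51 (chr6:125192165-125192214, plus strand): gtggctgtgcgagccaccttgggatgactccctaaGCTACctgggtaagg
Mrps6 (chr16:92058301-92058350, plus strand): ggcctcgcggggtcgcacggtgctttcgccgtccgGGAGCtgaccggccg
Mrpl36 (chr13:73330974-73331023, plus strand): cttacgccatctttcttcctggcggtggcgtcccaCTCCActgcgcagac

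Both classes shared a core motif of ETS family factors such as GABP. CCGGAAG, searched on both strands, occurred in the window of 9 of 26 cytosolic (34.6%) and 11 of 30 mitochondrial genes (36.7%), against 9.93% of all genes. Mitochondrial genes held the YY1 motif AAGATGGC in 6 of 30 windows (20%), cytosolic genes in 2 of 26 (7.69%), and all genes in 3.19%. The palindromic motif of the early B cell factors was in 0 of 26 and 0 of 30 windows, and in 1.06% of all. The E box CACGTG was in 3 cytosolic (11.5%) and 2 mitochondrial windows (6.67%), against 8.09% of all. These are matches of letters in windows around annotated starts, and an annotated start can lie some bases from the real one. The ETS core of 3 mitochondrial genes is shown in capitals, with 20 bases on either side.
Mrpl51 (chr6:125192090-125192136, plus strand): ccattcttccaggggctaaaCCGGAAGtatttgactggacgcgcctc
Mrpl3 (chr9:105053229-105053275, plus strand): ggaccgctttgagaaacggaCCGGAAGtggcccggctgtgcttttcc
Mrps27 (chr13:99344718-99344764, plus strand): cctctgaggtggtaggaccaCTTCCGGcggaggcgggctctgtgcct

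Not every probe set named for a cytosolic ribosomal protein lay at that gene. Cytosolic ribosomal protein genes have left many processed copies across the mouse genome, and an array probe can match a copy as well as the gene. Probe set numbers of this array run along the chromosomes: in 98.2% of 9400 probe sets with a known gene, that gene lay on the same chromosome and within 5 Mb of a gene among the 5 neighbours on either side. The mitochondrial members followed this order in 31 of 34 cases (91.2%), with Mrpl23, Mrpl41 and Mrps33 as the exceptions. The cytosolic members did so in 11 of 29 cases (37.9%). Another 17 (58.6%) sat among genes of a different chromosome, against 1.63% of all, and 1, Rps13, sat on its own chromosome but farther away. The 11 beside their gene were Rps3, Rps14, Rps19, Rpl14, Rpl19, Rpl22, Rpl26, Rpl27, Rpl3l, Rpl7l1 and Rpl39l. For the other 18 the array value may belong to a copy of the gene, to the gene itself or to both, so their values are uncertain as values of the named gene. This check was chosen after the data were seen.

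The tissue carried its label. Of 24 listed Schwann cell and myelin markers 16 were measured, with mean log2 levels from 11.30 to 11.60 in the WT pools, 10.96 in KO pool 2 and 10.59 in KO pool 4. Ebf2 itself, the targeted gene, was lower in both KO pools (log2 fold change -2.37, SE 0.19, adjusted p = 4.97e-07). In the fit over all probe sets 70 of 10361 passed adjusted p below 0.05 (0.676%). Array medians ran from 9.04 to 9.11 in WT and were 9.11 in KO pool 2 and 8.93 in KO pool 4. WT pools 9 and 11 stood apart in genes of skin and skeletal muscle. All 30 muscle markers were measured, with a summed log2 level of 282 in WT pool 1, 322 in pool 9 and 317 in pool 11. It was 295 and 302 in the KO pools. Results are therefore also given against WT pool 1 alone. Since these are bulk samples, fewer cells of a type and less RNA per cell cannot be told apart.

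The 34 mitochondrial ribosomal protein genes analysed here lay lower in the KO pools almost throughout, by small amounts. They are part of the 78 RefSeq genes that fit the rule, and genes with little spread over the pools are not among them. In every probe set of the table the lowest and the fourth-lowest pool lay at least 0.175 apart. Where the WT pools lay close together, as at Mrps17 (8.738, 8.729 and 8.726), only the KO values gave that gap. On its own a single low pool can give it and a single high pool cannot. The counts of lower genes may be shaped in part by this selection, which all probe sets share. Of the 34 genes 30 had a negative log2 fold change, with a median of -0.20 and an interquartile range from -0.27 to -0.12. Over all probe sets 50.2% were negative and the median was -0.0017. Both KO pools read below all 3 WT pools in 18 of the 34 genes (52.9%), against 13.3% of all probe sets, and above them in 1, Mrpl39, against 17.5%. Some of the 18, such as Mrps17 and Mrpl20, were without overlap by a very small margin. Single genes did not reach the threshold: 0 of 34 passed adjusted p below 0.05 in limma, the lowest adjusted p being 0.136, and 0 passed without moderation of the variance. At unadjusted p below 0.05 there were 5 lower and 0 higher, while 7.17% of all probe sets were lower and 7.14% higher at that level. Members of 1 list are not independent of each other, so these counts describe the list.

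**Figure D1:**
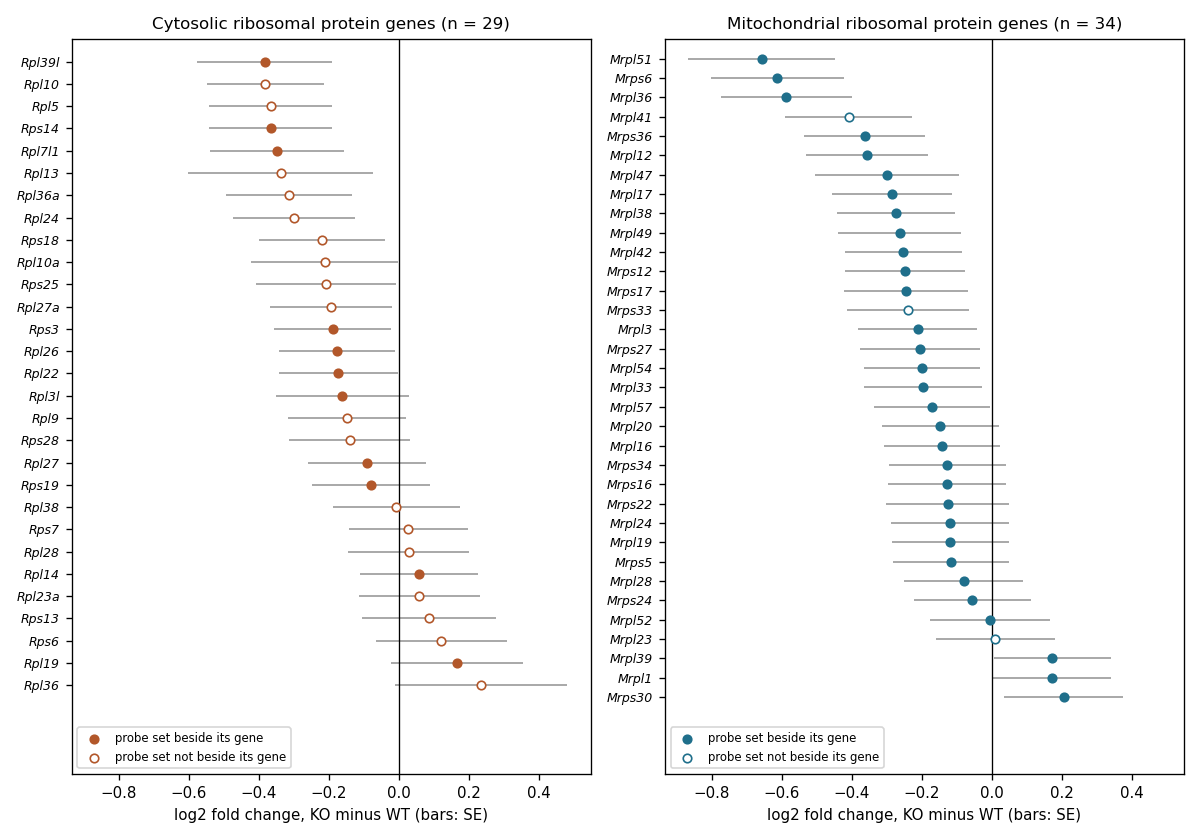
Log2 fold change (KO minus WT, horizontal axis) of each ribosomal protein gene, with bars of 1 SE from limma on 3 WT and 2 KO pools. Filled points are probe sets beside their gene in probe set order and open points those that are not. Of the mitochondrial genes 30 of 34 lie left of 0, and of the cytosolic genes 21 of 29.

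Mrpl51, Mrps6 and Mrpl36 stood lowest among genes of the mitochondrial ribosome. Mrpl51, a protein of the large subunit with no bacterial counterpart, read 8.62, 9.07 and 8.74 in WT, given here and throughout by ascending pool number. KO pool 2 read 8.55 and KO pool 4 read 7.76. Its log2 fold change was -0.66 (SE 0.21, adjusted p = 0.145). Both KO pools were below every WT pool, but KO pool 2 only just, and without KO pool 4 the value was -0.26. Mrps6, the counterpart of bacterial protein S6 in the small subunit, read 9.995, 10.29 and 10.02 in WT and 9.78 and 9.20 in KO. It was at -0.61 (SE 0.19, adjusted p = 0.136), or -0.32 without KO pool 4. Mrpl36, the counterpart of the small bacterial protein L36, read 10.51, 10.89 and 10.54 in WT and 10.28 and 9.83 in KO, a log2 fold change of -0.59 (SE 0.19, adjusted p = 0.142), or -0.36 without KO pool 4. The groups did not overlap at any of the 3, and KO pool 4 was the lowest array each time. With a prior that follows the level and is robust to outliers, limma called all 3 (adjusted p = 0.0197 for Mrpl51, 0.0221 for Mrps6 and 0.0203 for Mrpl36). The share of all probe sets called with that prior is not given here, so these calls cannot be set against it.

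The next 3 mitochondrial genes had smaller differences. Mrpl41, a large subunit protein whose probe set lay away from its gene, read 9.55, 9.71 and 9.68 in WT and 9.49 and 8.99 in KO (log2 fold change -0.41, SE 0.18, or -0.16 without KO pool 4). Mrps36, better known today as a subunit of the oxoglutarate dehydrogenase complex of the citric acid cycle, read 9.51, 9.87 and 9.78 in WT and 9.35 and 9.37 in KO (-0.36, SE 0.17, or -0.15 against WT pool 1 alone). Here the KO pools were nearly equal, and the WT pools differed more from each other. Mrpl12, which forms the stalk that recruits translation factors and also binds the mitochondrial RNA polymerase, read 10.67, 11.07 and 10.90 in WT and 10.48 and 10.57 in KO (-0.36, SE 0.17, or -0.14 against WT pool 1 alone). The groups did not overlap at these genes either, and WT pool 9 was the highest array at each.

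**Figure D2:**
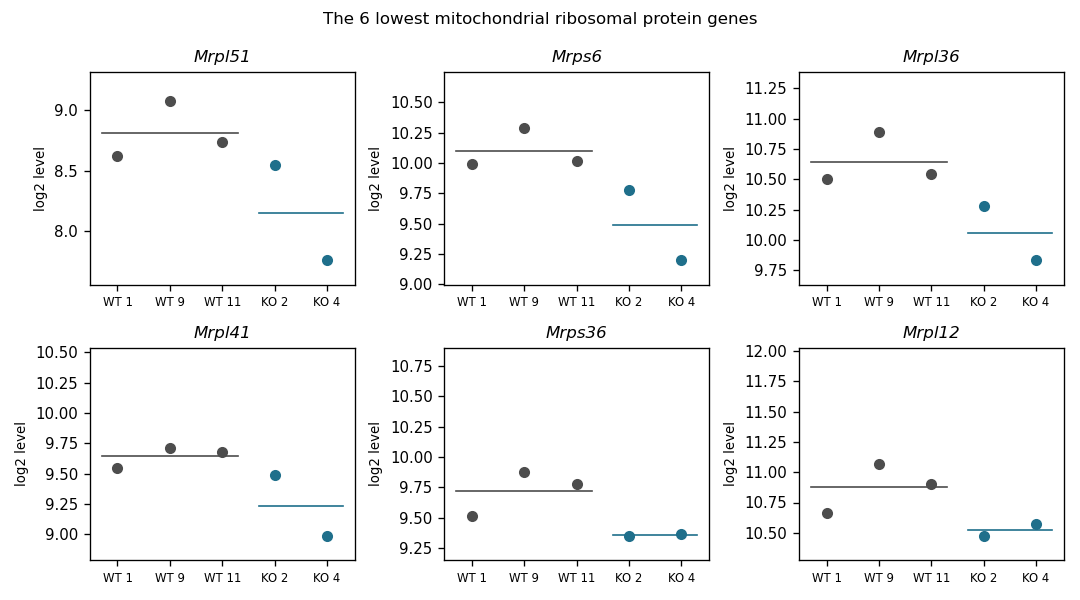
Log2 level in each pool (points) of the 6 mitochondrial ribosomal protein genes with the lowest fold change, with group means as lines; each vertical axis spans the same range of log2 units. The KO pools lie below the WT pools in every panel, and KO pool 4 lies well below KO pool 2 for Mrpl51, Mrps6, Mrpl36 and Mrpl41.

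At the other end stood Mrps30, Mrpl1 and Mrpl39. Mrps30, named for the small subunit but found in the large one in structures of the ribosome, read 8.72, 8.499 and 8.68 in WT and 8.72 and 8.95 in KO (log2 fold change 0.20, SE 0.17). Mrpl1, the counterpart of bacterial L1, was at 0.17 (SE 0.17), as was Mrpl39 (0.17, SE 0.17). Mrpl39 was the 1 gene of the class with both KO pools (11.36 and 11.23) above all WT pools (11.18, 11.03 and 11.16). The counterpart of bacterial L23, Mrpl23, was at 0.0093 (SE 0.17), Mrpl52 at -0.0047 (SE 0.17) and Mrps24 at -0.056 (SE 0.17), all within 1 SE of 0. None of these 6 passed (adjusted p from 0.601 to 0.990).

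Genes of both mitochondrial subunits were among the lower ones. By symbol, 19 of 22 large subunit genes and 11 of 12 small subunit genes were lower, with medians of -0.20 and -0.17. Both KO pools were below all WT pools in 13 of 22 and 5 of 12, against 13.3% of all probe sets. The SE of the 34 log2 fold changes ran from 0.17 to 0.21, and 3 of the values exceeded 0.5 in size.

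The other 12 mitochondrial genes without overlap, named here after their values were seen, had log2 fold changes from -0.29 to -0.14 and adjusted p from 0.456 to 0.689. They were Mrpl17, Mrpl38, Mrpl49, Mrpl42, Mrpl54, Mrpl33, Mrpl57, Mrpl20 and Mrpl16 of the large and Mrps12, Mrps17 and Mrps33 of the small subunit. Mrpl17 read 9.05, 9.12 and 8.98 in WT and 8.92 and 8.61 in KO, so the gap was carried more by KO pool 4. Mrps17, the counterpart of bacterial S17, read 8.738, 8.729 and 8.726 in WT and 8.725 and 8.245 in KO. There KO pool 2 was barely below WT and KO pool 4 alone was low. Mrpl20, the counterpart of bacterial L20, read 10.375, 10.391 and 10.469 in WT and 10.159 and 10.369 in KO. There KO pool 2 was the low array and KO pool 4 was barely below WT pool 1. The share of the difference that each KO pool carried thus varied from gene to gene.

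How the mitochondrial difference was shared between the KO pools depended on the scaling. In the values as deposited, relative to the WT mean, the 34 genes averaged -0.13 in KO pool 2 and -0.27 in KO pool 4. The WT pools were at -0.053, 0.065 and -0.012 from their own mean, so both KO pools lay outside the range of the WT pools. KO pool 2 was below the WT mean in 29 genes and KO pool 4 in 28. Over all probe sets the same averages were 0.020 and -0.040. After each array was centred on its median the order turned, with -0.16 in KO pool 2 and -0.12 in KO pool 4, and after quantile normalisation the pools were at -0.18 and -0.20. Both KO pools stayed below the WT mean under all 3 scalings. Against WT pool 1 alone 28 of 34 genes were lower (82.4%, against 49.2% of all probe sets), with a median of -0.15. WT pool 1 was the lowest WT pool in 21 of the 34 mitochondrial genes (61.8%) and in 19 of the 29 cytosolic ones (65.5%), against 34.1% of all probe sets.

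**Figure D3:**
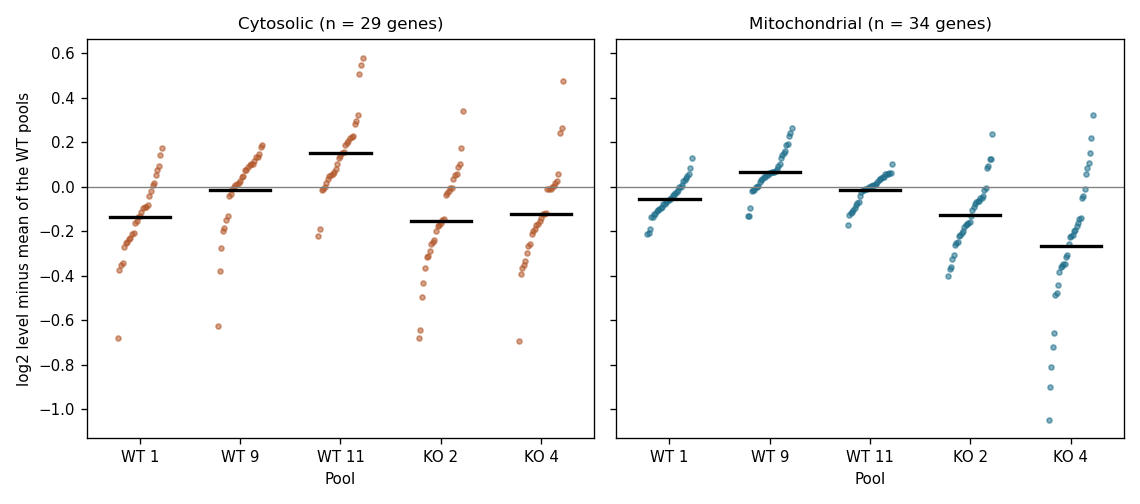
Log2 level minus the mean of the 3 WT pools (vertical axis) for each cytosolic (left) and mitochondrial (right) ribosomal protein gene in each pool; points are genes in order of value and black bars their mean. WT values scatter around 0 by construction. The mitochondrial means are -0.13 and -0.27 in KO pools 2 and 4, and the cytosolic means -0.16 and -0.12, close to that of WT pool 1 (-0.14).

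Cytosolic ribosomal protein genes lay lower as well, with a different pattern over the pools. Of the 29 genes 21 were lower in KO, with a median log2 fold change of -0.17 and values from -0.38 to 0.23. Both KO pools were below all WT pools in 8 genes (27.6%, against 13.3% of all probe sets) and above them in 0 (against 17.5%). In limma 0 of 29 passed (lowest adjusted p = 0.302), and 0 passed without moderation. At unadjusted p below 0.05 there were 1 lower, Rpl10, and 0 higher, against 7.17% and 7.14% of all probe sets. Large subunit genes were lower in 15 of 20 and small subunit genes in 6 of 9, with medians of -0.17 and -0.14. The genes without overlap were Rpl10, Rpl5, Rps14, Rpl36a, Rpl24, Rps3, Rpl26 and Rpl22. Rpl24, named after its values were seen, read 12.95, 13.18 and 13.35 in WT and 12.91 and 12.81 in KO (log2 fold change -0.30, SE 0.17), or -0.086 against WT pool 1 alone. The median was -0.17 for the 11 probe sets beside their gene and also -0.17 for the other 18.

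WT pool 1 was as low as the KO pools in this class. Relative to the WT mean, the cytosolic genes averaged -0.14, -0.015 and 0.15 over the WT pools, -0.16 in KO pool 2 and -0.12 in KO pool 4. WT pool 1 was thus between the KO pools, and WT pool 11 was the highest array. Against WT pool 1 alone 15 of 29 genes were lower (51.7%, against 49.2% of all probe sets), and the median was -0.035. WT pool 11 gave the highest WT value in 15 of the 18 probe sets away from their gene and in 3 of the 11 beside it. Those 11 averaged -0.15, 0.086 and 0.066 over the WT pools. Skeletal muscle markers were also lowest in WT pool 1 and below the WT mean in both KO pools, with averages of -0.83, 0.49 and 0.34 over WT, -0.39 in KO pool 2 and -0.17 in KO pool 4. The 16 measured of 18 keratinocyte markers averaged -0.91, 0.75 and 0.16 in WT and -0.84 and -0.61 in KO, with summed levels from 116 to 143 in WT and of 118 and 121 in KO. Their part in the cytosolic difference was not tested.

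Among single cytosolic genes, Rpl10 had close WT values and both KO pools well below them. Rpl10, which joins the large subunit late, close to its catalytic centre, read 11.78, 11.73 and 11.80 in WT and 11.27 and 11.50 in KO. Its log2 fold change was -0.38 (SE 0.17, adjusted p = 0.302), and -0.39 against WT pool 1 alone, but its probe set lay away from the gene. Rps14, a small subunit protein whose probe set lay beside its gene, read 12.59, 13.02 and 12.91 in WT and 12.48 and 12.47 in KO (-0.37, SE 0.18, limma adjusted p = 0.349). The KO pools were nearly equal there, yet the value was -0.12 against WT pool 1 alone. Rpl5, which carries the 5S ribosomal RNA and can bind Mdm2, had a probe set away from its gene that read 5.69, 5.55 and 5.96 in WT and 5.30 and 5.44 in KO, with a log2 fold change of -0.37 (SE 0.18). Its mean level of 5.59 was the lowest of the class, where the median over all probe sets was 9.05. Rpl13 showed the widest spread, at 8.36, 9.14 and 9.62 in WT and 8.36 and 9.04 in KO, so its groups overlapped. Its log2 fold change was -0.34 (SE 0.26), and it changed sign to 0.34 against WT pool 1 alone.

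The highest cytosolic values were no firmer. Rpl36 was at 0.23 (SE 0.25) and Rpl19 at 0.17 (SE 0.19). Rps6, the subunit that S6 kinases phosphorylate, was at 0.12 (SE 0.19), Rps13 at 0.085 (SE 0.19), Rpl23a, at the exit of the nascent chain, at 0.059 (SE 0.17), and Rpl14 at 0.057 (SE 0.17). All had overlapping groups and adjusted p from 0.663 to 0.869. Rps6 read 8.90, 8.65 and 9.22 in WT and 8.90 and 9.19 in KO, through a probe set away from its gene. Rpl19 lay beside its gene and read 8.27, 8.76 and 8.85 in WT and 8.72 and 8.87 in KO, with WT pool 1 as the low array.

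The members Rpl39l, Rpl3l and Rpl7l1 were paralogs of other ribosomal protein genes. Rpl39l, a relative of Rpl39 best known from the testis, read 5.97, 6.37 and 6.37 in WT and 5.59 and 6.12 in KO (log2 fold change -0.38, SE 0.19, or -0.11 against WT pool 1 alone). Rpl3l, the relative of Rpl3 in striated muscle, read 6.74, 7.27 and 7.24 in WT and 6.77 and 7.07 in KO. It was at -0.16 (SE 0.19) and turned to 0.18 against WT pool 1 alone. Among the WT arrays Rpl3l was lowest in pool 1, where 19 of the 29 cytosolic genes (65.5%) had their lowest WT value. Rpl7l1, a nucleolar relative of Rpl7, read 11.69, 11.67 and 11.67 in WT and 11.67 and 10.98 in KO, so its -0.35 (SE 0.19) came from KO pool 4, with -0.0043 without it. Their parent genes are not analysed here. No paralog passed (adjusted p from 0.373 to 0.690).

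WT pools varied less among themselves in mitochondrial than in cytosolic genes. The median SD over the 3 WT pools was 0.090 for the mitochondrial and 0.20 for the cytosolic class, and 0.14 for all probe sets. Within the cytosolic class it was 0.13 for the 11 probe sets beside their gene and 0.21 for the other 18. An SD above 0.2 was found in 15 of 29 cytosolic and 4 of 34 mitochondrial genes. At least 1 pair of pools shared an identical value in 6 of the 29 cytosolic and 6 of the 34 mitochondrial genes (20.7% and 17.6%, against 27% of all probe sets), among them Rpl14 with 9.875 in WT pool 11 and in both KO pools.

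The direct comparison of the classes did not separate the genotypes. For each pool, the mean cytosolic deviation from WT minus the mean mitochondrial one was -0.084, -0.080 and 0.16 over the WT pools, -0.029 in KO pool 2 and 0.15 in KO pool 4. Both KO values lay within the range of the WT pools. The medians of the fold changes, -0.17 for cytosolic and -0.20 for mitochondrial genes, changed places in 5 settings: array weights (-0.21 and -0.19), quantile normalisation (-0.18 and -0.17), levels above the 50th percentile (-0.17 and -0.15), without WT pool 1 (-0.24 and -0.22) and without KO pool 4 (-0.16 and -0.14).

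**Figure D4:**
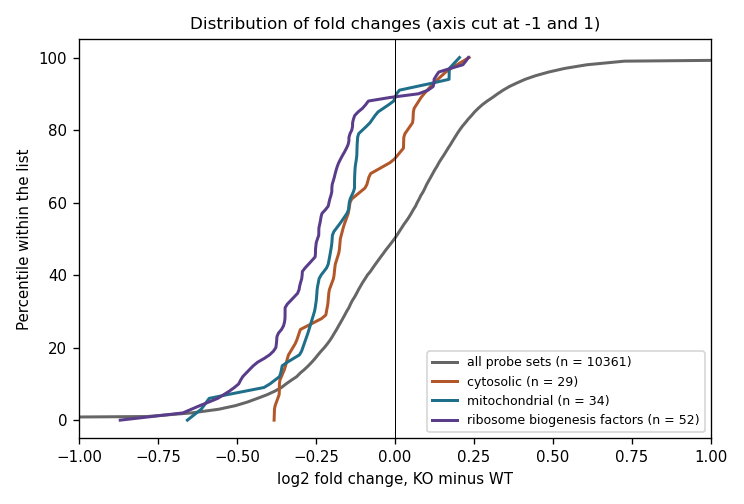
Percentile (vertical axis) of log2 fold changes (KO minus WT, horizontal axis, shown from -1 to 1) within each list. The mitochondrial and cytosolic lists and the ribosome biogenesis factors have medians of -0.20, -0.17 and -0.25, and all probe sets -0.0017.

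Genes that build ribosomes lay lower together with the subunits. Of 52 measured ribosome biogenesis factors 46 were lower, and 0 passed in either direction (12 lower and 0 higher at unadjusted p below 0.05, against 7.17% and 7.14% of all probe sets). Their median log2 fold change was -0.25, or -0.20 against WT pool 1 alone, and both KO pools were below all WT pools in 26 and above them in 1, against 13.3% and 17.5% of all probe sets. The lowest was Rpp38, a subunit of RNase P and RNase MRP (-0.87, SE 0.24, adjusted p = 0.0869). Its WT mean was 11.04, with 10.74 and 9.61 in the KO pools, and it was at -0.30 without KO pool 4, where Bop1 was lowest (-0.48). The highest was Riok1, a kinase of small subunit maturation (0.23, SE 0.17). On average the list was at -0.14 in KO pool 2 and -0.37 in KO pool 4 in the values as deposited.

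Other genes of mitochondrial translation were lower mostly in KO pool 4 in the values as deposited. Among 20 measured genes listed as translation factors and tRNA synthetases of mitochondria, 17 were lower (median -0.21) and 0 passed. The list also held Gars, a synthetase that serves the cytosol as well, and the RNA-binding proteins Lrpprc and Slirp. At unadjusted p below 0.05 in limma 5 were lower and 0 higher, where 7.17% and 7.14% of all probe sets were. The 20 genes averaged -0.049 in KO pool 2 and -0.39 in KO pool 4. Rars2, which charges mitochondrial tRNA with arginine, was lowest (-0.67, SE 0.20, adjusted p = 0.120). Tufm, the mitochondrial elongation factor Tu, was highest (0.34, SE 0.19), or 0.60 against WT pool 1 alone. Its level was low, with a WT mean of 5.91. Without KO pool 4 Rars2 was at -0.29. In 5 of the 20 both KO pools were below all WT pools, and in 1 above them, against 13.3% and 17.5% of all probe sets. Of 19 factors of mitochondrial ribosome assembly and rRNA, 15 were lower (median -0.14) and 0 passed (2 lower and 0 higher at unadjusted p below 0.05), with Tfb1m, which methylates the small mitochondrial rRNA, at -0.47 (SE 0.19) and Gtpbp10 at 0.33 (SE 0.18), or -0.17 and 0.079 without KO pool 4. In 3 of the 19 both KO pools were below all WT pools, and in 1 above them, again against 13.3% and 17.5% of all probe sets. This list averaged -0.033 and -0.25 in KO pools 2 and 4.

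More of the cytosolic translation factors and of the growth regulators were lower than higher. Of 18 measured cytosolic translation factors 12 were lower (median -0.15) and 0 passed (1 lower and 1 higher at unadjusted p below 0.05), from Eef1e1 at -0.48 (SE 0.18) to the initiation factor gene Eif1a at 0.46 (SE 0.18), or 0.19 without KO pool 4. Both KO pools were below all WT pools in 9 of the 18 and above them in 4, against 13.3% and 17.5% of all probe sets. Outside the symbol rule, the ribosomal proteins Rpsa and Rplp1 were at -0.33 (SE 0.18) and -0.12 (SE 0.17), or -0.054 and 0.0030 against WT pool 1 alone. Of 20 measured genes on a list for mTORC1 and growth regulation, 12 were lower (median -0.11) and 0 passed (1 lower and 1 higher at unadjusted p below 0.05). The list mixed activators with inhibitors such as Tsc1 and Deptor. It also held the downstream target Rps6 and Pdk1, which in mouse names a kinase of pyruvate dehydrogenase. Mycn, a transcription factor of the Myc family, was lowest (-0.44, SE 0.17), and Gabpb1, a subunit of GABP, which binds the ETS core, was highest (0.68, SE 0.19, adjusted p = 0.103). With WT pool 1 as the only reference Gabpb1 was at 0.34. Both KO pools were below all WT pools in 2 of these 20 genes and above them in 5, against 13.3% and 17.5% of all probe sets. At unadjusted p below 0.05 in limma, 7.17% of all probe sets were lower and 7.14% higher.

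The 3 genes matched by name alone went their own ways. Rps6ka6, a kinase of the p90 ribosomal S6 kinase family (RSK4), read 6.92, 6.68 and 7.06 in WT and 7.204 and 7.41 in KO. Its log2 fold change was 0.42 (SE 0.18, adjusted p = 0.269), with both KO pools above all WT pools, and 0.39 against WT pool 1 alone. Rps6ka5, the kinase MSK1 that phosphorylates histone H3 and CREB, read 8.67, 8.53 and 8.25 in WT and 8.72 and 8.67 in KO (0.22, SE 0.18), or 0.026 against WT pool 1 alone. Rps19bp1 read 10.14, 10.26 and 10.27 in WT and 10.03 and 10.09 in KO (-0.16, SE 0.17).

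Markers of cell types moved beside the ribosomal genes. Of the 16 Schwann cell and myelin markers 14 were lower in KO (median -0.63). In limma 7 were called lower at adjusted p below 0.05, among them Pmp2, Mag and Egr2, and 0 higher. Over all probe sets 0.676% were called in either direction. Both KO pools were below all WT pools in 13 of the 16 and above them in 0, against 13.3% and 17.5% of all probe sets. The 16 markers averaged -0.48 in KO pool 2 and -0.84 in KO pool 4, in the values as deposited. Their summed log2 level ran from 181 to 186 in WT and was 175 and 170 in KO. The 29 measured of 30 markers of dividing cells averaged 0.40 and 0.42 in the KO pools and 0.37, -0.12 and -0.25 over the WT pools, with summed levels of 313 and 314 in KO and from 294 to 312 in WT. All 9 measured of 15 fibroblast and matrix markers were higher (0.32 in both KO pools, summed levels of 111 in both, against 107 to 109 in WT). Endothelial markers, 14 of 14 measured, averaged 0.48 and 0.19 in KO and 0.26, -0.10 and -0.16 over the WT pools, so WT pool 1 was above KO pool 4. Their summed levels were 148 and 144 in KO, against 139 to 145 in WT.  Their part in the ribosomal differences was not tested.

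**Figure D5:**
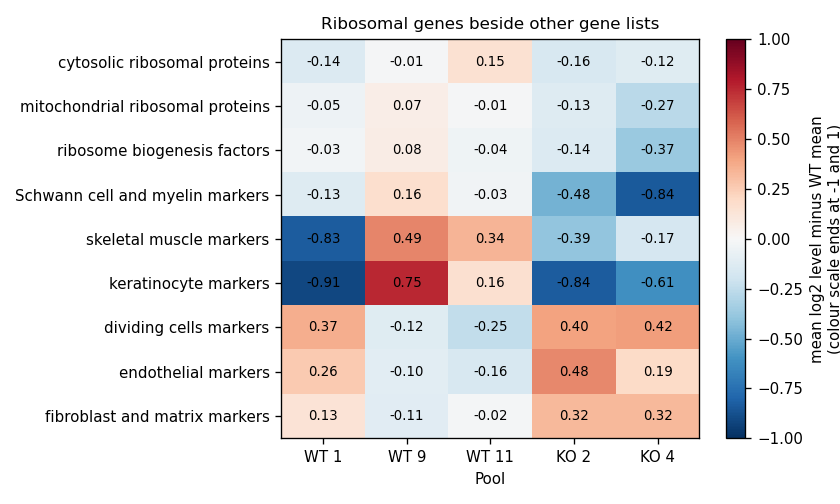
Mean log2 level minus the WT mean (colour and printed value) of both ribosomal classes and of other gene lists (rows) in each pool (columns). Mitochondrial ribosomal, biogenesis and Schwann cell genes are lowest in KO pool 4 in the values as deposited, and cytosolic ribosomal, skin and muscle genes average -0.14, -0.91 and -0.83 in WT pool 1.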

How the data were processed

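The authors' deposited table holds log2 expression values, 1 per probe set and pool. Per the submitters' processing notes RMA produced them, and the sources used here give no version or settings. Ranked from the lowest level up, the lowest and the fourth of the 5 pools lay at least 0.175 apart in every probe set. Genes with little spread are therefore not analysed here. On its own a single low pool can give such a gap, and a single high pool cannot. Counts of lower genes in each class and list may be shaped in part by this. Counts cover part of each list. The platform annotation gave 1 symbol to 9411 probe sets, several to 384 and none to 566, and all 66 symbols matched RefSeq.

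KO was compared with WT by limma 3.58.1 (R 4.3.3; lmFit, eBayes, no covariates) on all 10361 probe sets, with Benjamini-Hochberg adjustment and calls below 0.05. The fit, with residual degrees of freedom of 3 and 17.4 from the prior, was tested on simulated data, and is limited by the number of arrays. Members and lists were chosen with earlier results of these data known. Named were all called members, the 6 highest and 6 lowest of each class, paralogs, symbols that encode no ribosomal protein, and the highest, lowest and called genes of each pathway list. Alternatives changed the scaling, filter, prior, weights and pools.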

Additional observations from a re-analysis of the deposited data

How the results depend on the processing

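Calls differed between settings: 0 members were called in the main setting and under both other scalings, the weaker filter, array weights, no moderation and the removal of any pool. With a trended robust prior 3 were called (Mrpl36, Mrpl51 and Mrps6), and 2 among probe sets above the 50th percentile of level (Mrpl36 and Mrps6). The shares of all probe sets called in these last settings are not given here, so the counts cannot be set against them. The mitochondrial median stayed negative in all 13 other fits and ran from -0.23 to -0.14 when 1 pool was left out, and the cytosolic median from -0.24 to -0.089. Against WT pool 1 alone the cytosolic median was -0.035. Centring arrays on their medians turned the cytosolic mean of KO pool 4 to 0.031 and moved the mitochondrial one to -0.12, with -0.16 in KO pool 2, so that the order of the KO pools turned. Under quantile normalisation the mitochondrial means were -0.18 in KO pool 2 and -0.20 in KO pool 4. Of the 28 named members, 11 changed sign in some fit, none of them called. Quantile normalisation gave -0.051 for Mrpl23, centring gave 0.055 for Mrpl52 and 0.0030 for Mrps24, and array weights gave -0.056 for Rpl36, -0.057 for Rps13 and -0.041 for Rps6. Against WT pool 1 alone the values were 0.063 for Mrpl52, 0.066 for Mrps24, 0.34 for Rpl13, -0.035 for Rpl14, -0.12 for Rpl23a and 0.18 for Rpl3l. Without 1 pool the ranges crossed 0 for Mrpl23 (-0.066 to 0.084), Mrpl52 (-0.16 to 0.15), Rpl13 (-0.68 to 0.0047), Rpl14 (-0.018 to 0.10), Rpl19 (-0.011 to 0.28), Rpl23a (-0.037 to 0.15), Rpl36 (-0.078 to 0.51), Rps13 (-0.17 to 0.34) and Rps6 (-0.020 to 0.27). The cause of these changes was not tested. No paired analysis was possible because the WT and KO pools share no numbers. Limiting the lists to probe sets beside their gene, chosen after seeing the data, left medians of -0.17 and -0.20.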

Other observations

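Probe sets that carry a ribosomal protein symbol together with other symbols were left out by the rule, and they lay on the same side. There were 32 of them, and 24 had a negative log2 fold change, with a median of -0.15. Both KO pools read below all WT pools in 11 and above them in 2, against 13.3% and 17.5% of all probe sets. In limma 0 passed adjusted p below 0.05 (lowest adjusted p = 0.0523), with 4 lower and 1 higher at unadjusted p below 0.05 (7.17% and 7.14% of all probe sets), and no gene can be named for them.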
